A study of Mus musculus with 6 samples.

Results

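A set of 10 inhibitors of Wnt signalling was followed in primary mouse prostate stroma with and without a stabilised β-catenin: the intracellular Naked genes Nkd1 and Nkd2, the secreted Dickkopf genes Dkk2 and Dkk3, the secreted Frizzled-related genes Sfrp1, Sfrp2, Sfrp4 and Frzb, the Wnt-binding Wif1, and Apcdd1, a membrane inhibitor. These 10 genes were chosen by name as antagonists of the pathway, with earlier results of these data known. All were found among the 24346 gene symbols of the files. They comprised 11 of the 34535 transcript models, because Nkd1 had a pair of models and the other 9 genes had 1 model each. Both groups were stromal cells grown from the prostates of C57BL/6 mice aged 8 to 12 weeks, cultured on collagen in medium with serum and dihydrotestosterone, freed of cells that did not attach within 30 min of replating, and used within 3 weeks of dissociation. The control group (vector, 3 libraries) was labelled vec and the other (S37A, 3 libraries) S37A; per the protocol in the labels, S37A β-catenin cDNA was inserted in the lentiviral vector FU-CGW. The share of cells infected is not given in the labels. Nothing in the labels ties a library to a culture or a mouse, or says whether cells of several prostates were pooled. The tests below therefore measure the spread between these libraries, and that spread may be technical.

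In the canonical Wnt pathway a secreted Wnt protein binds a Frizzled receptor and an Lrp5 or Lrp6 co-receptor, Dishevelled is recruited, and the complex that marks β-catenin for breakdown is held back. Sfrp proteins and Wif1 bind Wnt proteins outside the cell, Dickkopf proteins act on the Lrp co-receptors together with Kremen, and Naked proteins bind Dishevelled inside the cell. Several of these genes are known as transcriptional targets of β-catenin in other tissues, where they form negative feedback loops. The S37A form lacks a serine whose phosphorylation leads to breakdown, so it acts below the step that these antagonists control.

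Of the 10 antagonists, 3 rose in S37A: both Naked genes and Dkk2. By limma 0 fell, also at an unadjusted p under 0.05. Dkk3, Sfrp1, Frzb and Apcdd1 were tested and did not pass, and Sfrp2, Sfrp4 and Wif1 lay below the expression filter of a mean of 0.5 FPKM over the 6 libraries. FPKM counts sequenced fragments relative to transcript length and library size, so levels can be compared between genes. The test was limma on log2(FPKM + 1) over 12022 genes with Benjamini-Hochberg adjustment at 0.05, and no antagonist passed the filter through the S37A group alone. The 3 rises among 7 tested antagonists stand beside 6.06% of all tested genes called higher and 19.9% called lower. Because the antagonists were chosen with earlier results of these data known, these shares describe the list and do not test it. The median log2 difference was 0.20 over these 7 and -0.07 over all genes tested. The all-gene split depended on scaling: 729 genes were higher and 2393 lower as deposited, against 1265 and 945 after median-ratio scaling, 1094 and 957 after quantile normalization, and 900 and 1500 when the 100 most abundant genes were taken out. The rises of Nkd1, Nkd2 and Dkk2 were called under each of these scalings.

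**Figure D1:**
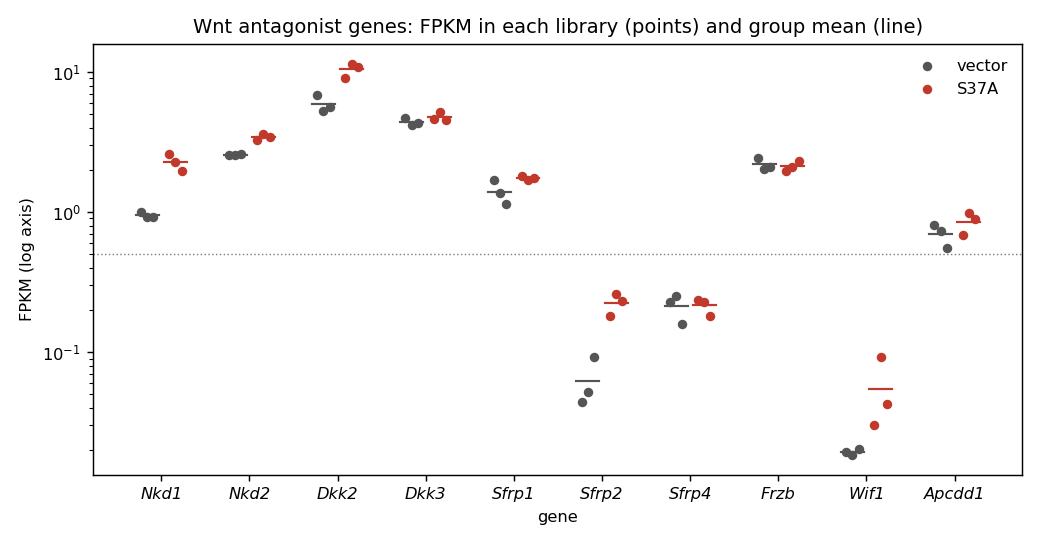
FPKM of the 10 antagonist genes on a log axis in 3 vector libraries (grey) and 3 S37A libraries (red), replicates 1 to 3 from left to right, with the group mean as a line and the filter of 0.5 FPKM dotted. Nkd1, Nkd2 and Dkk2 separate between the groups, and so do Sfrp1, Sfrp2 and Wif1, which were not called. Dkk3, Frzb, Sfrp4 and Apcdd1 overlap, and Sfrp2, Sfrp4 and Wif1 lie below the filter.

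The promoters of genes that rose are shown first, because β-catenin reaches DNA through proteins of the TCF/LEF family, which bind a short known motif. RefSeq promoter windows (build GRCm38.p6, the assembly of mm10) were found for 6 of the 10 genes. For Nkd2 and Dkk2 the window precedes the start of the transcript model that carried the signal, and the 250 bases before that start are printed 5′ to 3′ on the gene's strand, with the core letters CTTTG (or CAAAG on the other strand) in capitals. The Dkk2 window is chr3:132085042-132085291 on the plus strand and that of Nkd2 is chr13:73847632-73847881 on the minus strand.
Dkk2: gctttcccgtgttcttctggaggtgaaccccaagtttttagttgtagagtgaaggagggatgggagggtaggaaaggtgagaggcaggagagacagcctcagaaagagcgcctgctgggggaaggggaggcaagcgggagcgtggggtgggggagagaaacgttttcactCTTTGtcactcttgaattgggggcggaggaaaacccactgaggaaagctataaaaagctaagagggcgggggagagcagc
Nkd2: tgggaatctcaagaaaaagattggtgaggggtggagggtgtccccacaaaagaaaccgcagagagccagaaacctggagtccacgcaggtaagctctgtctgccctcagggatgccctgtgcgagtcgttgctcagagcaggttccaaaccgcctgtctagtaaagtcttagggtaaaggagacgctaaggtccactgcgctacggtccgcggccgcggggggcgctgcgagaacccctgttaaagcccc

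The Dkk2 window holds 1 such core, 80 bases before the start, and the Nkd2 window holds 0. On both strands, 48.6% of all 32851 promoter windows of this length hold the core. The longer TCF/LEF words CTTTGAT and CTTTGAA contain the core. They occur on either strand in 7.48% of all windows and in 0 of the 6 windows of these antagonists. The 6 include the Nkd1 window described below, and with so few windows and so low a share the 0 says little. The windows of Frzb and Wif1, genes that were not called, also hold 1 core each. For Nkd1 the available window precedes the start at position 88527633 of chromosome 8, which belongs to a model listed at 0 FPKM in all 6 libraries, so it is not shown. These letters are a description of the windows, and sites farther away were not searched.

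Nkd1 had the highest ratio between the groups among the 7 tested antagonists. The gene lies on chromosome 8 from 88521354 to 88594884 (mm10, GENCODE M21, plus strand, protein-coding). Its level was 0.997, 0.923 and 0.917 FPKM in vector replicates 1 to 3 and 2.58, 2.26 and 1.96 FPKM in S37A replicates 1 to 3. All S37A values were above all vector values, and the vector libraries lay close together while the S37A libraries spread more. The ratio of mean FPKM was 2.40, with a log2 difference of 0.74 (SE 0.07; 95% interval 0.57 to 0.92; limma adjusted p = 0.00291). All of this signal was on the longer Nkd1 model, of 4314 bases, which starts at 88521344. The shorter model of 4104 bases was listed at 0 with an upper bound of at most 0.0120 FPKM in any library, in the authors' intervals. The 2 models share most of their sequence, so the authors' assignment of reads decides this split. GENCODE also places Gm45496, an unclassified gene on the same strand, over 2917 bases of the Nkd1 span.

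Nkd2, the paralog of Nkd1 on chromosome 13 from 73818534 to 73847631 (minus strand), was the more abundant Naked gene in both groups. Its span overlaps a pseudogene on the other strand, Gm8062, by 444 bases. Vector replicates 1 to 3 held 2.53, 2.54 and 2.58 FPKM of it, and S37A replicates 1 to 3 held 3.28, 3.60 and 3.405 FPKM. The groups did not overlap, and the vector values were the most tightly spaced of the 7 tested antagonists, with an SD of 0.0227 FPKM. Nkd2 was 1.34-fold higher by the ratio of means (log2 difference 0.32, SE 0.05, limma adjusted p = 0.00767). The sum of both Naked genes was 3.46 to 3.53 FPKM in vector and 5.36 to 5.86 FPKM in S37A. Within each library Nkd1 amounted to 0.393, 0.363 and 0.356 of Nkd2 in vector, and to 0.785, 0.629 and 0.575 of it in S37A. This ratio, which a single scaling factor for each library cannot change, was 1.77-fold higher in S37A without overlap. With 1 FPKM added to both genes, the log2 change of the ratio was 0.43 in place of 0.83. An exact two-sided permutation test gave p = 0.1 for the ratio, which is the lower limit with 3 libraries in each group, and 0.114 after adjustment over 8 within-family pairs.

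Dkk2 was the most abundant of the 10 antagonists in both groups. It encodes a secreted ligand of Lrp5 and Lrp6 that blocks or, in some settings, weakly activates the pathway depending on Kremen, and it lies on chromosome 3 from 132085292 to 132180304 (plus strand). Its level was 6.82, 5.24 and 5.62 FPKM in vector and 9.04, 11.5 and 10.9 FPKM in S37A, without overlap between the groups. The ratio of means was 1.78 and the log2 difference 0.74 (SE 0.11, 95% interval 0.49 to 0.98, limma adjusted p = 0.00744). Among the S37A libraries, replicate 1 had the lowest Dkk2 value and the highest Nkd1 value. Dkk2 made up 30.2% to 33.7% of the summed FPKM of the 10 antagonists in vector and 37.1% to 41.6% in S37A.

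Dkk3 encodes a divergent Dickkopf protein whose action on Wnt signals is less clear. It lies on chromosome 7 from 112116017 to 112159057 (minus strand). It stood at 4.67, 4.16 and 4.32 FPKM in vector and 4.61, 5.16 and 4.55 FPKM in S37A. The groups overlapped, with vector replicate 1 above S37A replicates 1 and 3. The log2 difference of 0.10 did not pass the test (95% interval -0.04 to 0.24, limma adjusted p = 0.237). Dkk2 was 1.46, 1.26 and 1.30 times Dkk3 in the vector libraries and 1.96, 2.22 and 2.40 times Dkk3 in the S37A libraries. The groups of ratios did not overlap, and the exact two-sided permutation p was 0.1 (0.114 adjusted over 8 pairs).

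**Figure D2:**
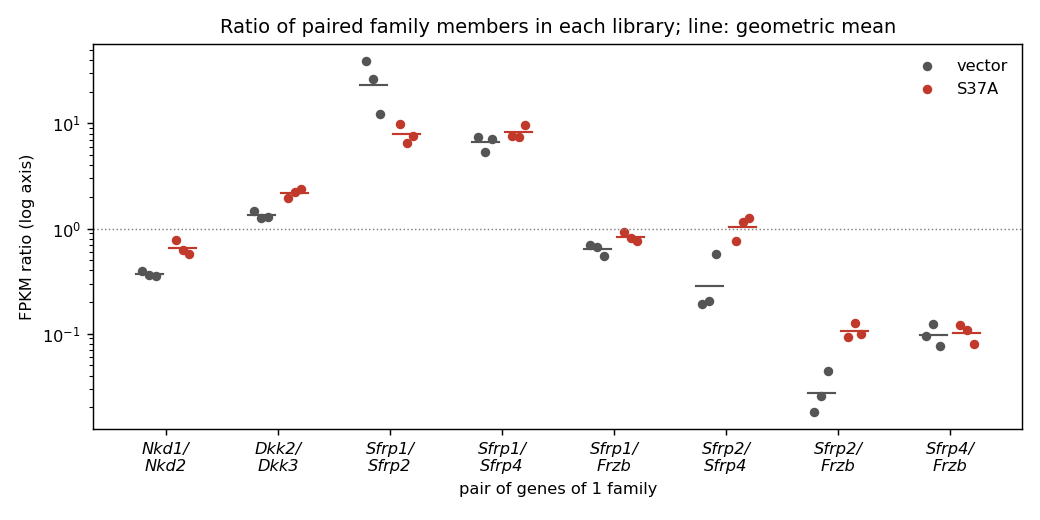
FPKM ratio of each pair of genes of 1 family within each library, on a log axis, for vector (grey) and S37A (red), with the geometric mean of each group as a line. The Nkd1/Nkd2 ratio is 1.77-fold and the Dkk2/Dkk3 ratio 1.64-fold higher in S37A, and only the Sfrp4/Frzb ratio overlaps between the groups. Ratios with Sfrp2 or Sfrp4 rest on 4 to 21 inferred fragments of these genes a library. The Sfrp1/Sfrp4 ratio separates only narrowly, at 7.45 in vector replicate 1 against 7.50 in S37A replicate 2.

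The 4 Sfrp-family genes, which encode secreted proteins with a Frizzled-like cysteine-rich domain, gave no call in the tested members. Sfrp1 (chromosome 8, 23411502 to 23449632, plus strand) stood at 1.70, 1.37 and 1.14 FPKM in vector and at 1.80, 1.70 and 1.75 FPKM in S37A. All S37A values were above the vector values, but S37A replicate 2 and vector replicate 1 were almost equal. The vector libraries spread far more (SD 0.282 FPKM) than the S37A libraries (SD 0.0505 FPKM). The difference of 0.20 on the log2 scale did not pass (SE 0.08, limma adjusted p = 0.109). It passed in 2 of 15 alternatives, with a limma adjusted p of 0.0245 without vector replicate 1 and 0.0164 with sample weights. The highest limma adjusted p was 0.263, without vector replicate 3. With Sfrp1, 4 of the 7 tested antagonists had S37A values wholly above vector values, beside 11.3% of all tested genes.

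Frzb, also called Sfrp3, on chromosome 2 from 80411970 to 80447625 (minus strand), was the most abundant Sfrp-family gene in both groups. Its values were 2.42, 2.05 and 2.10 FPKM in vector and 1.96, 2.09 and 2.30 FPKM in S37A. The groups overlapped throughout, and the log2 difference of -0.03 (95% interval -0.19 to 0.12, limma adjusted p = 0.729) turned to 0.02 with median-ratio scaling and 0.05 with quantile normalization. On the FPKM + 1 scale this interval corresponds to 0.877- to 1.09-fold. Sfrp1 amounted to 0.542 to 0.701 of Frzb in vector and 0.764 to 0.923 of it in S37A.

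Sfrp2 and Sfrp4 were barely detected. Sfrp2 (chromosome 3, 83766321 to 83774316, plus strand) stood at 0.0438, 0.0521 and 0.0920 FPKM in vector and 0.182, 0.262 and 0.230 FPKM in S37A. These values rest on about 4, 5 and 8 fragments in vector and 16, 20 and 19 in S37A, as inferred from the widths of the authors' confidence intervals. The groups did not overlap, and the ratio of summed fragments per depth was 3.59 (95% exact binomial interval 2.05 to 6.59, counting error only). Sfrp2 was below the filter and not tested; with no filter it had a log2 difference of 0.20 and a limma adjusted p of 0.0199. An antisense gene, Gm26771, overlaps Sfrp2 by 464 bases, and the library kit as described in the labels is not stated to keep strand.

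Sfrp4 (chromosome 13, 19623104 to 19632994, plus strand) was listed at 0.228, 0.253 and 0.160 FPKM in vector and at 0.236, 0.227 and 0.182 FPKM in S37A. The groups overlapped, and the values rest on 12 to 21 inferred fragments a library, with a ratio of 1.00 per depth (95% exact binomial interval 0.657 to 1.52, counting error only). In vector Sfrp2 was below Sfrp4 in all 3 libraries, at 0.192, 0.206 and 0.576 of its level. In S37A the ratio was 0.768, 1.15 and 1.26, so the order differed between libraries. In vector replicate 3 the authors' intervals of Sfrp2 (0.0270 to 0.157 FPKM) and Sfrp4 (0.0672 to 0.252 FPKM) overlapped too, so few fragments limit both orders. The summed level of the Sfrp family was 3.49 to 4.39 FPKM in vector and 4.18 to 4.46 FPKM in S37A, and these ranges overlapped.

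Wif1, which encodes a secreted protein that binds Wnt ligands through its WIF domain, was near the limit of detection. The gene lies on chromosome 10 from 121033960 to 121100650 (plus strand). It was listed at 0.0193, 0.0184 and 0.0203 FPKM in vector, which corresponds to 2 inferred fragments in each library, and at 0.0300, 0.0922 and 0.0427 FPKM in S37A, or 3, 8 and 4 fragments. The S37A values were higher without overlap, but the ratio of summed fragments per depth, 2.77, had a 95% exact interval of 1.02 to 8.72 that covers counting error only. With no filter the limma adjusted p was 0.197.

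Apcdd1, on chromosome 18, encodes a membrane glycoprotein that binds Wnt and Lrp5 and is known as a target gene of the pathway. Its level was 0.809, 0.735 and 0.557 FPKM in vector and 0.682, 0.977 and 0.888 FPKM in S37A. The groups overlapped, because S37A replicate 1 was below vector replicates 1 and 2. The log2 difference of 0.12 did not pass (95% interval -0.08 to 0.32, limma adjusted p = 0.308). It passed in 1 of 15 alternatives, with sample weights (limma adjusted p = 0.0405), and the limma adjusted p reached 0.649 in the others.

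**Figure D3:**
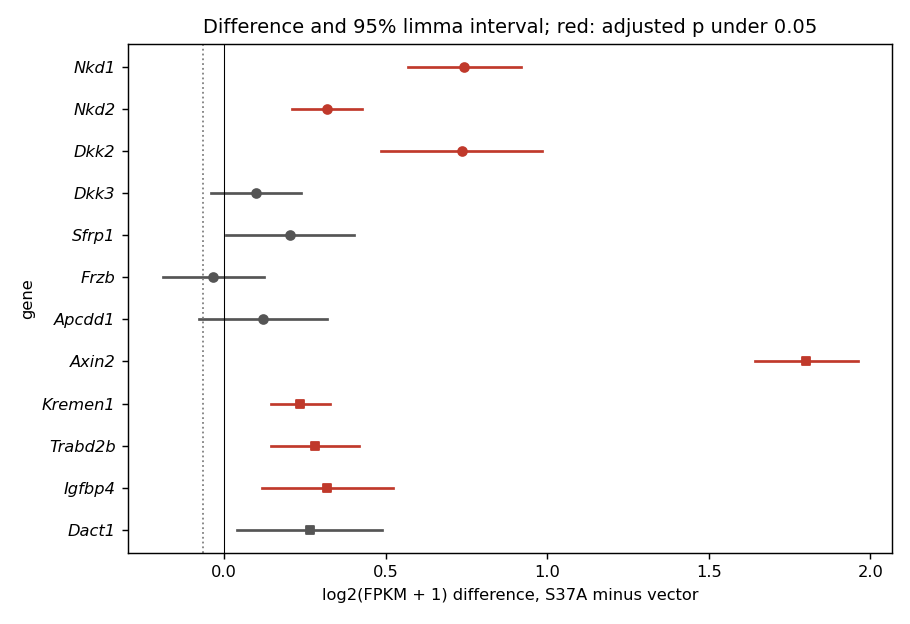
Difference in log2(FPKM + 1), S37A minus vector, with the 95% limma interval, for the 7 tested antagonists (circles) and the 5 other Wnt inhibitors with the smallest p (squares), red where the adjusted p is under 0.05. The dotted line marks the median of all genes tested, -0.07; Nkd1 and Dkk2 lie at 0.74, Nkd2 at 0.32, and Axin2 at 1.80.

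In vector the order of levels was Dkk2, Dkk3, Nkd2, Frzb, Sfrp1, Nkd1, Apcdd1, Sfrp4, Sfrp2 and Wif1, with no overlap between the libraries of neighbouring genes. The places of Sfrp4, Sfrp2 and Wif1 there rest on only 2 to 21 inferred fragments a library. In each vector library the authors' intervals of Sfrp2 and Wif1 overlapped. In S37A Nkd1 moved from the sixth place to the fourth, where its range overlapped that of Frzb, and Sfrp2 and Sfrp4 overlapped. The summed FPKM of the 10 genes was 17.3 to 20.2 in vector and 24.4 to 27.8 in S37A. The share of Dkk3 in that sum was 23.1% to 24.7% in vector and 17.4% to 18.9% in S37A, although its own level overlapped between the groups.

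**Figure D4:**
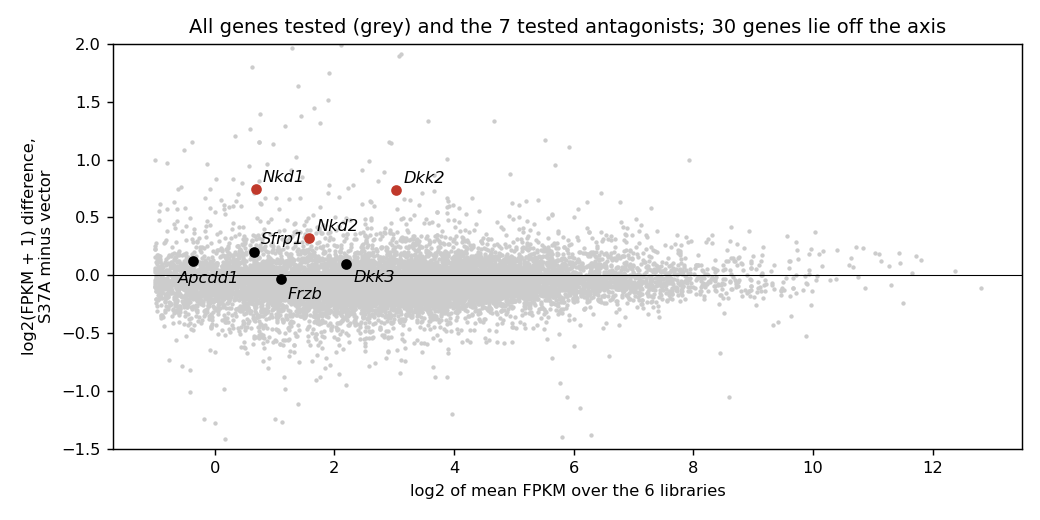
Difference in log2(FPKM + 1), S37A minus vector, against the log2 of mean FPKM for all 12022 genes tested (grey), with the 7 tested antagonists as larger points, red where called; 30 genes lie off the vertical axis. Nkd1 and Dkk2 lie above most genes of similar level, and Nkd2 is nearer to them. The 4 antagonists that were not called lie lower, from -0.03 (Frzb) to 0.20 (Sfrp1), but above the median of -0.07 over all genes tested.

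By fitted difference Nkd1 and Dkk2 stood at ranks 68 and 70 among the rises of all 12022 genes, Nkd2 at rank 329 and Sfrp1 at rank 691. These ranks hold for log2(FPKM + 1): with a pseudocount of 0.1 the log2 difference of Nkd1 was 1.17 and that of Dkk2 0.82, so the near-equal values of the pair came with the pseudocount of 1. Each rise of Nkd1, Nkd2 and Dkk2 was called in every alternative in which the gene was tested, with adjusted p-values of at most 0.0190, 0.0370 and 0.0357. A filter at 2 FPKM leaves Nkd1 out of the test. When single transcript models were tested in place of gene sums, 3 of 7 antagonist models were called higher, beside 2.62% of all models. These were the models of Nkd1, Nkd2 and Dkk2. This result is not separate support, because the FPKM of these 7 models equal the gene sums. Only the fit and the adjustment, over 14550 models, differ. The count of models called was lower when 1 library was left out: 0 without vector replicate 2, vector replicate 3 or S37A replicate 2, 1 without S37A replicate 1 or 3, and 2 without vector replicate 1.

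Of 27 other inhibitors of the pathway, 26 were in the files and 12 passed the filter. Of these 12, 4 rose, 0 fell (0 also at an unadjusted limma p under 0.05) and 8 did not pass. Over all tested genes 6.06% were called higher and 19.9% lower. The median log2 difference was 0.14 over the 12 and -0.07 over all genes tested. This list was also chosen with earlier results of these data known, so the shares describe it and do not test it. Axin2, the scaffold of the destruction complex and a standard β-catenin target, differed most, with 0.169, 0.0921 and 0.132 FPKM in vector against 3.29, 2.74 and 2.82 FPKM in S37A. Like Nkd1, Axin2 was highest in S37A replicate 1. Kremen1, the co-receptor of Dickkopf proteins, rose from 17.1 ± 0.606 to 20.3 ± 0.384 FPKM (SD, n = 3 libraries; limma adjusted p = 0.0100). Trabd2b, which encodes a Wnt-cleaving protease, rose from 0.358 ± 0.0363 to 0.652 ± 0.0706 FPKM (adjusted p = 0.0168 by limma), and this call was lost without vector replicate 3 (adjusted p = 0.0510), while leaving out any S37A library took the gene below the filter. Axin2 and Trabd2b passed the filter through the S37A group, so they are counted here but had to differ. Igfbp4, an IGF-binding protein that also blocks Wnt receptors, rose from 42.2 ± 5.75 to 52.7 ± 1.76 FPKM (limma adjusted p = 0.0350), but the call was lost in 8 of 16 alternatives. Dact1, a Dishevelled-binding protein, had 1.37 ± 0.211 FPKM in vector and 1.85 ± 0.299 FPKM in S37A, a difference that did not pass (limma adjusted p = 0.0770). In all, 2 of these inhibitors were called higher without vector replicate 3 or S37A replicate 1, 2 or 3.

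Among the ligands and receptors that these antagonists act on, 4 genes rose and 1 fell, beside 6.06% of all tested genes called higher and 19.9% lower. These lists, too, were chosen with earlier results of these data known. Of 19 Wnt ligands 5 were tested, and Wnt11 and Wnt2 rose (log2 differences 0.62 and 0.71) while Wnt9a, Wnt5a and Wnt5b did not pass, and 0 fell, also at an unadjusted limma p under 0.05. The median log2 difference of the 5 was 0.29. The values of Wnt5a depended on the processing: its log2 difference of 0.08 was not called (limma adjusted p = 0.123), but it was called higher with median-ratio scaling, quantile normalization and sample weights (limma adjusted p = 0.0296, 0.0479 and 0.0215), and lower, at -0.30, with the most abundant model (limma adjusted p = 0.0409). Of 18 Frizzled, Lrp, Ror, Ryk and Dishevelled genes 16 were tested, and 2 rose, 1 fell and 13 did not pass. Fzd1 and Ror1 rose (0.87 and 0.40), and the call of Ror1 was lost without S37A replicate 3 (limma adjusted p = 0.0588). Dvl2, one of the Dishevelled genes whose products Naked proteins bind, fell by 0.26 on the log2 scale, from 8.89 ± 0.396 to 7.27 ± 0.260 FPKM (adjusted p = 0.0125 by limma). Ror2 and Lrp6 did not pass (log2 differences 0.18 and -0.14). Leaving out vector replicate 1 gave 3 lower receptor or Dishevelled genes in place of 1, and leaving out S37A replicate 3 gave 1 higher in place of 2.

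Between 41.7 and 52.2 M fragments were inferred for each library from interval widths, lowest in S37A replicate 2. Ctnnb1, the β-catenin gene, was 1.28-fold higher by the ratio of means in S37A (limma adjusted p = 0.0158, or 0.0534 and 0.0585 when S37A replicate 2 or 3 was left out), and these values do not separate the introduced sequence from the cells' own gene. The cells carried the stromal markers in all libraries. The 6 smooth muscle markers summed to 6934 to 7361 FPKM in vector and 8189 to 8550 in S37A. There 6 of 6 were called higher, beside 6.06% of all tested genes. The 9 fibroblast markers summed to 4078 to 4678 FPKM in vector and 4752 to 5208 in S37A, but did not move one way: of 8 tested, Thy1 was called higher (74.5 to 91.4 FPKM, limma adjusted p = 0.00799), Pdgfra lower (18.8 to 15.8 FPKM, limma adjusted p = 0.0132) and 6 were not called, among them Dcn with means of 80.7 and 67.9 FPKM. Lum was below the filter, at no more than 0.502 FPKM. Macrophage markers moved with the groups: 6 of 7 tested were called higher, beside 6.06% of all tested genes. Of the 7, 4 passed the filter through S37A alone. Among these, C1qa, C1qb and C1qc are counted as called but had to differ. The sum of all 10 macrophage markers was 18.9 to 24.1 FPKM in vector and 51.5 to 58.7 in S37A. None was at 0 in all libraries, and Adgre1, Aif1 and Ptprc stayed under 0.5 FPKM. The part of these cells in the antagonists' values was not tested. In bulk RNA, more cells of a type and more RNA per cell cannot be told apart. Of 11 epithelial markers 7 were tested and 0 called by limma, with 1 at an unadjusted p under 0.05, and their sum was 18.2 to 24.1 FPKM in vector and 16.3 to 25.9 in S37A, lowest in S37A replicate 1. Endothelial markers summed to 26.2 to 28.9 FPKM in vector and 25.3 to 27.0 in S37A, with 0 of 5 tested called, and glial markers to 2.48 to 3.08 and 1.99 to 2.88 FPKM, with 0 of 2 tested called (0 of both lists at an unadjusted limma p under 0.05), and lymphocyte markers to at most 0.107 FPKM.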

How the data were processed

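The 3 vector and 3 S37A libraries were grouped and numbered by their titles. The labels describe cDNA from a SMART-Seq v4 kit, primed at random and with oligo(dT). The submitters' processing notes list bcl2fastq 1.8.3, TopHat, Cufflinks and mm10; the annotation release is not given in the sources used here. Per the file headers, the authors deposited FPKM of each transcript model with confidence bounds, and a coverage signal. The median ratio of coverage to FPKM over expressed models was 4.28 to 5.37 in a library. Coverage served only to check depth.

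Summed FPKM per symbol were analysed without 5 symbols of failed status, using limma 3.58.1 in R 4.3.3 with an intensity trend. A pseudocount of 1 understates changes of low genes. Fragments behind a value were inferred as the square of 2 FPKM over the distance to the upper bound. As a check, fragments were also inferred from the full interval width, for single-model genes with a lower bound above 0. These were whole, within 0.02, for 80.8% to 83.8% of genes with up to 10 fragments but 10.6% to 11.1% above 30, so no count test was run. Values with a lower bound of 0, such as those of Wif1 in vector, were outside this check. Ratios were tested by exact permutation in R. Intervals on fragment ratios (SciPy 1.17.1) are 95% Clopper-Pearson; they take fragments of amplified cDNA as independent and cover counting error only. Positions are from GENCODE M21.

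The antagonists and the other gene lists were chosen with earlier results of these data known. Named genes are the antagonists, Ctnnb1 and the 5 smallest p of each list of other inhibitors, ligands and receptors. On simulated data of this comparison, with 200 of 12022 genes raised by 0.25, 0.5 or 1 on the log2 scale, 27%, 82% and 98.5% were recovered, false calls numbered 2, 7 and 9, and data with no change gave 0 calls. The simulated noise was independent between genes, while the real fit called 729 genes higher and 2393 lower. These rates may therefore not hold for the real data. Alternatives were 3 scalings, a pseudocount of 0.1, filters, variance models, a replicate block, single libraries left out, and the most abundant model.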

Additional observations from a re-analysis of the deposited data

How the results depend on the processing

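The rises of Nkd1, Nkd2 and Dkk2 were called in 15 of 15, 16 of 16 and 16 of 16 alternatives that tested them. For these 3 genes the alternative with the most abundant model used the same values as the gene sums. The number of antagonists called higher was 5 with sample weights, 3 or 4 with 1 library left out, and 2 with a filter at 2 FPKM, and 0 were lower in any of the 16 alternatives. Over all genes, 1265 were higher and 945 lower with median-ratio scaling, 1094 and 957 with quantile normalization, 900 and 1500 without the 100 most abundant genes, 1238 and 3655 with sample weights, 522 and 1491 with the most abundant model, and 298 to 747 and 606 to 2401 with 1 library left out, fewest without S37A replicate 3. With the replicate number as a block, 442 genes were higher and 1193 lower, 3 antagonist genes were called higher and 0 antagonist models. Nothing in the labels ties same-numbered libraries together beyond the number. Their deviations from the group means correlated at -0.12, 0.02 and 0.10, and not every library correlated best with its own number. With 3 libraries in each group these correlations constrain each other, so they cannot decide whether same-numbered libraries share a batch. Antagonist models called higher were 1 with no filter and 0 to 2 with 1 library left out. Other inhibitors called higher were 2 with a filter at 2 FPKM and 2 to 4 with 1 library left out. Higher ligands were 1 with that filter, 4 with sample weights and 3 with median-ratio scaling or quantile normalization. Wnt5a was called higher in these last 3 settings (log2 differences 0.12, 0.16 and 0.14), and it was the 1 ligand lower with the most abundant model (-0.30). Receptor and Dishevelled genes were higher in 4 cases with median-ratio scaling and without the 100 most abundant genes and in 1 to 3 with 1 library left out. They were lower in 2 cases with the filter at 2 FPKM, 4 with sample weights and 1 to 3 with 1 library left out. The log2 difference of Frzb was 0.0181, 0.0456 and 0.0232 with median-ratio scaling, quantile normalization and sample weights, and -0.0748 to 0.0188 with 1 library left out; that of Wnt5b was -0.145 to 0.0521 with 1 library left out. Adding 1 FPKM brought the log2 change of the Sfrp1/Sfrp2 ratio from -1.56 to 0.000509, and that of Sfrp4/Frzb was -0.0914 to 0.26 with 1 library left out. The causes of these shifts were not tested. Depth limits Sfrp2, Sfrp4 and Wif1, which rest on 2 to 21 inferred fragments a library.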
